A study of Mus musculus with 2 samples.

Results

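NF-kB is a family of transcription factors that RANK and other receptors switch on in macrophages and osteoclast precursors. In resting cells the dimers are held in the cytoplasm by IκB proteins. In the canonical branch a kinase complex, which contains IKKβ and the scaffold NEMO, marks IκBα for destruction and frees dimers such as RelA with the product of Nfkb1. In the non-canonical branch the kinase NIK drives the processing of the Nfkb2 precursor, which releases dimers with RelB. Mice that lack both precursor genes, Nfkb1 and Nfkb2, form no osteoclasts. The genes described here are 10 members of this pathway, chosen by name: the 5 subunit genes Nfkb1, Nfkb2, Rela, Relb and Rel, the inhibitor genes Nfkbia and Tnfaip3, and the kinase genes Map3k14, Ikbkb and Ikbkg. All 10 were found in the deposited table of 18987 genes, each in 1 row, and all 10 passed the filter of an average of at least 1 CPM (counts scaled to library size), as 12086 genes of the table did.

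RNA had been sequenced from 2 samples of the mouse line RAW264.7, macrophage-like cells that become osteoclast-like under the cytokine RANKL. One library carried a control shRNA and the other an shRNA against Cpeb4, which encodes an RNA-binding protein of the cytoplasmic polyadenylation family. In both, cells plated at 7500 per cm2 were given 100 ng/ml RANKL after 24 h, and both belong to day 3 of stimulation per the series title. The comparison asks how the pathway's transcripts differ when Cpeb4 is targeted. With 1 library per group every difference below is between these libraries, without a replicate check, and no test was possible. The labels name no clone or culture, and an untreated library was not analysed here. The libraries held 79399680 counts (control) and 119350322 counts (Cpeb4 shRNA). CPM values are scaled by TMM, and intervals in brackets are exact 95% Clopper-Pearson intervals that cover counting error only. A gene was called higher or lower at a difference of at least 2-fold, which is 1 on the log2 scale.

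The targeted gene, Cpeb4, stood at 345 CPM with the control shRNA and at 104 CPM with the Cpeb4 shRNA, 3.31-fold lower. The libraries also differed in differentiation and cycling. All 10 osteoclast markers, among them the protease gene Ctsk, were below the control level, 9 of them by at least 2-fold, and their summed level was 49814 CPM in the control library against 11299 CPM. All 10 cycling markers, among them Mki67, were at least 2-fold higher, with sums of 90.1 and 1794 CPM. The table held 9 of 10 macrophage markers, 7 of them past the filter, with sums of 4848 and 3117 CPM. Csf1r, Spi1 and Ptprc were among those 7, while Adgre1 was under the filter. Markers of fibroblasts and osteoblasts (5 of 8 listed) and lymphocytes (2 of 8) all stayed under the filter, and 0 of 8 granulocyte and mast cell markers were listed. Of 8 dendritic cell markers 3 passed, and the 5 listed summed to 42.8 and 6.58 CPM. The part of the osteoclast and cycling differences in any result below was not tested. In a bulk sample, fewer cells of a type and less RNA per cell cannot be told apart.

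Several NF-kB genes are themselves NF-kB targets, so the promoter stretches of members that carry the κB consensus are shown first. RefSeq promoter windows of 300 bases (GRCm38.p6, 250 bases before to 50 after a start site) were found for 7 of the 10 members, and not for Nfkb1, Relb and Ikbkb. The κB consensus, searched by its usual ambiguous letters on both strands, occurred in a window of 4 of the 7: Nfkbia, Tnfaip3, Nfkb2 and Rel. Of the 8797 genes past the filter with a window, 12.1% held a match, and of all 32851 windows 8.46% did. Start sites are those of RefSeq. The gene spans given further below come from another annotation, and the Tnfaip3 and Nfkb2 stretches lie inside those spans. The 150 bases before the RefSeq start site of each follow, read along the gene, with the matches in capitals.
Nfkbia, chr12:55492648-55492797, minus strand: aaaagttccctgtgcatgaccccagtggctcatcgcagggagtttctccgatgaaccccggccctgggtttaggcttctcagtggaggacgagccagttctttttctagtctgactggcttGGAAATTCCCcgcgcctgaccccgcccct
Tnfaip3, chr10:19015411-19015560, minus strand: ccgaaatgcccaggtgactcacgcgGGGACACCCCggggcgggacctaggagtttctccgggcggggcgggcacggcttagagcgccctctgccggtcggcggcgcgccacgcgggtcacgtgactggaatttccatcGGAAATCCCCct
Nfkb2, chr19:46304587-46304736, plus strand: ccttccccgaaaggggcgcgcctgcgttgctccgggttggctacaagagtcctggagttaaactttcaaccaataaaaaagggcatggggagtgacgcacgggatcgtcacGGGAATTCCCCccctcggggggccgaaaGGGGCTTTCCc
Rel, chr11:23770970-23771119, minus strand: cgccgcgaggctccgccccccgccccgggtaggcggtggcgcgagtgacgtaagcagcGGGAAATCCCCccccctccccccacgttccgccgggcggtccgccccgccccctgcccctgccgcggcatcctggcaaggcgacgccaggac

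The Nfkbia match began 29 bases before the start site. Tnfaip3 had matches at 125 and 12 bases, the second of them, GGAAATCCCC, also part of the capitals of Rel. In Nfkb2 and Rel the longer run of capitals is a pair of overlapping matches, 39 and 38 bases before the start in Nfkb2 and 92 and 91 bases in Rel, and Nfkb2 had a further match at 11 bases. The windows of the other Nfkb2 start sites held matches too, among them GGGACTTTCC, and the window of the second Tnfaip3 start site had none. Rela, Map3k14 and Ikbkg had no match in these windows. A match is a description of the letters only. Genes with a match lay on both sides of 0 in the comparison below: Nfkb2 and Rel above it and Nfkbia and Tnfaip3 below it, under TMM scaling.

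The members lay on both sides of 0, much as all genes did. Under TMM scaling 5 members were above 0 and 5 below, beside 6345 and 5741 of the 12086 genes past the filter. The split depends on the setting, since the sign of Rela turned under 4 of them. Of the members 1 was at least 2-fold higher (14.6% of all genes past the filter were) and 0 were at least 2-fold lower (11.8% of all genes were). Expressed as Cpeb4 shRNA over control, the median log2 ratio was 0.06 over the members and 0.05 over all genes past the filter. At the high end stood Nfkb1, and at the low end the inhibitor genes Nfkbia and Tnfaip3. Both Nfkb1 and Nfkbia lay so close to the 2-fold line that their counting intervals held it, so the calls change with small shifts in scaling.

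**Figure D1:**
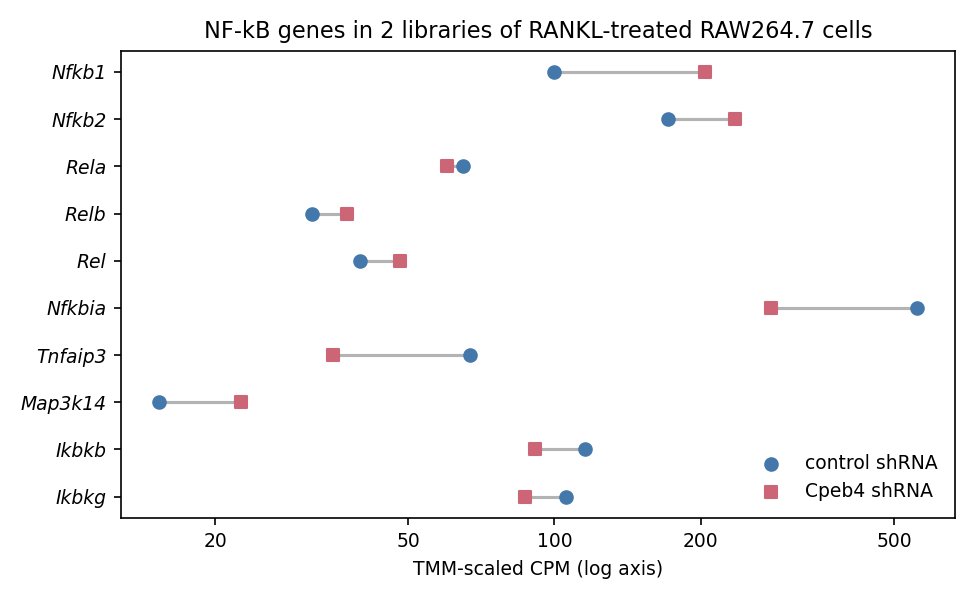
TMM-scaled CPM (log axis) of each NF-kB gene in the control shRNA library (circles) and the Cpeb4 shRNA library (squares), 1 library per group with no replicate error. The longest lines are those of Nfkb1, from 99.8 to 204 CPM, Nfkbia, from 558 down to 280 CPM, and Tnfaip3, from 66.9 down to 35.1 CPM.

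Among the subunits the 2 precursor genes had the largest positive ratios. Nfkb1 (ENSMUSG00000028163; mm10 chromosome 3, 135584655 to 135691547, minus strand) had 7306 control counts and 26386 counts with the Cpeb4 shRNA, or 99.8 and 204 CPM. That is a log2 ratio of 1.03 (0.99 to 1.07), and 13.9% of all genes past the filter had a higher ratio. Nfkb2 (ENSMUSG00000025225; chromosome 19, 46304320 to 46312385, plus strand) had 12546 and 30527 counts, or 171 and 236 CPM. Its log2 ratio was 0.46 (0.43 to 0.49), inside the 2-fold line. The products of these 2 genes are long precursors that are cut to DNA-binding subunits, and the uncut forms act as IκB-like inhibitors.

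The 3 subunits that carry a transactivation domain differed less. Rela (ENSMUSG00000024927; chromosome 19, 5637483 to 5648130, plus strand), the main canonical activator, had 4745 and 7757 counts, or 64.8 and 60.0 CPM. Its log2 ratio was -0.11 (-0.16 to -0.06), and the sign turned under 4 settings, among them total-count scaling (0.12) and reference-gene scaling (0.04). Relb (ENSMUSG00000002983; chromosome 7, 19606217 to 19629438, minus strand), the partner of the Nfkb2 product, had 2317 and 4835 counts, or 31.6 and 37.4 CPM (log2 ratio 0.24, 0.17 to 0.31). Rel (ENSMUSG00000020275; chromosome 11, 23736847 to 23770970, minus strand), which encodes c-Rel, had 2919 and 6225 counts, or 39.9 and 48.1 CPM (0.27, 0.21 to 0.34). Nfkb2, Relb and Rel each lay below 0 under 1 setting, scaling to Gapdh alone, at -0.26, -0.48 and -0.45. Gapdh itself was low, at 51.0 and 84.2 CPM.

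The Cpeb4 shRNA library had less of both inhibitor transcripts. Nfkbia (ENSMUSG00000021025; chromosome 12, 55489410 to 55492647, minus strand) encodes IκBα, the inhibitor that NF-kB itself re-induces. Its counts were 40832 with the control shRNA and 36209 in the deeper Cpeb4 shRNA library, or 558 and 280 CPM. Its log2 ratio was -0.99 (-1.01 to -0.97), a 1.99-fold lower level, and 11.9% of genes past the filter had a lower ratio. Tnfaip3 (ENSMUSG00000019850; chromosome 10, 19000910 to 19015657, minus strand) encodes the ubiquitin-editing enzyme that ends signalling from TNF and Toll-like receptors. It had 4899 and 4537 counts, or 66.9 and 35.1 CPM, a log2 ratio of -0.93 (-0.99 to -0.87). Both stayed below 0 under every scaling tried, from -0.55 and -0.48 with Actb scaling to -1.72 and -1.66 with Gapdh scaling.

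Under TMM scaling the kinase genes lay on both sides of 0. Map3k14 (ENSMUSG00000020941; chromosome 11, 103219762 to 103267472, minus strand), which encodes NIK, the kinase of the non-canonical branch, had 1123 and 2925 counts, or 15.3 and 22.6 CPM. Its log2 ratio was 0.56 (0.46 to 0.66), and it was 1.01 with Actb scaling and -0.16 with Gapdh scaling. Ikbkb (ENSMUSG00000031537; chromosome 8, 22659212 to 22706589, minus strand), which encodes the canonical kinase IKKβ, had 8478 and 11786 counts, or 116 and 91.1 CPM (-0.35, -0.39 to -0.31). Ikbkg (ENSMUSG00000004221; chromosome X, 74393290 to 74453854, plus strand), which encodes the scaffold NEMO, had 7743 and 11250 counts, or 106 and 86.9 CPM (-0.28, -0.32 to -0.24). Ikbkb and Ikbkg turned positive with Actb scaling, at 0.10 and 0.17.

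Gene overlaps limit some of these values, because the sources used here do not say how the counting treated strand. Of the 10 members 5 overlap no other annotated gene: Rela, Relb, Rel, Nfkbia and Tnfaip3. Nfkb2 shares exon bases with Psd on the opposite strand, which had 1078 and 3201 counts, and with a long noncoding RNA gene on that strand. Ikbkg shares exon bases with G6pdx on the opposite strand, a gene at 46.0 and 102 CPM that was itself 2.22-fold higher in the Cpeb4 shRNA library. Map3k14 shares exon bases with 1700028N14Rik on the same strand. Nfkb1 and Ikbkb overlap Gm43430 and Gm15346, without shared exon bases. Gm43430 had 8 and 50 counts.

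**Figure D2:**
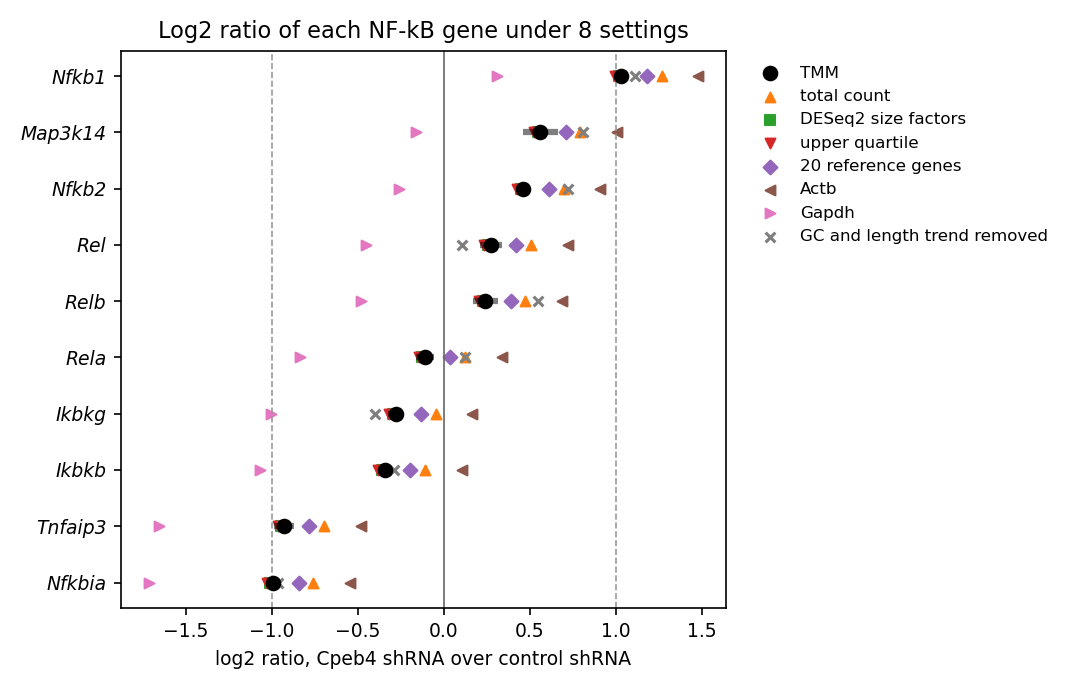
Log2 ratio of Cpeb4 shRNA over control shRNA for each gene (x axis) under TMM scaling (black points with 95% counting intervals) and under other scalings or after a trend with GC content and length was taken out (other symbols). Dashed lines mark 2-fold. Nfkb1 stays right of 0 and Nfkbia and Tnfaip3 stay left of 0 in each setting drawn, while Rela lies on either side.

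Ratios of 2 genes within a library do not depend on library scaling, though a trend with GC content and length can still move them. The pairs below are given without removal of that trend. Of the 45 pairs of members 13 changed their ratio by at least 2-fold between the libraries, and 10 of these 13 involved Nfkbia or Tnfaip3. The 45 pairs reuse the ratios of 10 genes and are not independent. The share over pairs of all genes was not computed, so the count of 13 has no background to be read against. Counts of Nfkbia were 5.59 times those of Nfkb1 with the control shRNA and 1.37 times with the Cpeb4 shRNA. This is a 4.07-fold shift (2.03 on the log2 scale, 1.98 to 2.07), the widest of the 45 pairs since it joins the highest and the lowest member. Against Tnfaip3 the shift of Nfkb1 was 3.90-fold. Nfkb2 shifted by 2.74-fold against Nfkbia and by 2.63-fold against Tnfaip3, and Map3k14 by 2.94-fold and 2.81-fold. Relb and Rel shifted by 2.35-fold and 2.40-fold against Nfkbia. For Rela the shift against Nfkbia was in the same direction and smaller, 1.84-fold (0.88 on the log2 scale, 0.83 to 0.94). Each subunit transcript was thus more abundant relative to both inhibitor transcripts in the Cpeb4 shRNA library. The same held for most genes past the filter. Of these, 11.9% had a lower ratio than Nfkbia and 13.1% a lower ratio than Tnfaip3. This direction is therefore not particular to the subunits.

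Some of the other pairs kept nearly the same ratio, while others shifted by less than 2-fold, such as Map3k14 with Ikbkb (1.87-fold). The log2 ratio of Nfkbia minus that of Tnfaip3 was -0.06 (-0.12 to -0.0005), and Ikbkb minus Ikbkg gave -0.06 (-0.12 to -0.005). Only the pairs of Relb with Rel (-0.03, -0.13 to 0.07) and of Nfkb2 with Map3k14 (-0.10, -0.20 to 0.01) had intervals that held 0. The match of Relb and Rel depends on the setting. After the trend with GC content and length was taken out, Relb stood at 0.55 and Rel at 0.10. The 3 pairs past 2-fold without an inhibitor gene were those of Nfkb1 with Rela (2.21-fold), Ikbkb (2.60-fold) and Ikbkg (2.49-fold). Nfkb2, Relb and Map3k14 of the non-canonical branch stayed within 1.25-fold of each other, and Rel was within 1.25-fold of each of them too. Of the canonical branch Rela stayed close to Ikbkb (1.18-fold) and Ikbkg (1.13-fold), while Nfkb1 parted from these genes. The closeness of Rela to Ikbkb and Ikbkg, and of Rel to Map3k14, depends on the setting too. After the trend was taken out, Rela stood at 0.12, Ikbkb at -0.29 and Ikbkg at -0.40. Map3k14 then stood at 0.81, beside Rel at 0.10.

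Levels of different genes were compared per length, as CPM per kb of merged exons. Nfkbia had the highest level of the 10 members in both libraries, at 346 and 174 CPM per kb. Among the subunits Nfkb2 was highest, at 37.4 and 51.5 CPM per kb, and Rela had 21.1 and 19.5. By the longest transcript Nfkb1 stood above Rela in the Cpeb4 shRNA library, at 49.2 against 22.1 CPM per kb. By merged exons Nfkb1, at 8.27 CPM per kb in the control library, was level with Relb at 8.14, and reached 16.9 against 9.62 in the Cpeb4 shRNA library. Rel was the lowest subunit, at 5.34 and 6.44, and Map3k14 the lowest member, at 2.34 and 3.45 CPM per kb. Tnfaip3 had 9.26 and 4.85, Ikbkb 6.07 and 4.77 (23.9 and 18.8 by its longest transcript), and Ikbkg 13.0 and 10.7 CPM per kb.

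Of the summed level of the 5 subunits, Nfkb1 made up 10.3% with the control shRNA and 16.3% with the Cpeb4 shRNA. Rela went the other way, from 26.3% to 18.8%. Nfkb2 took 46.6% and 49.5% by merged exons but 41.5% and 40.8% by the longest transcript, so its share has no settled direction. The level of Nfkbia was 4.32 times the subunit sum with the control shRNA and 1.67 times with the Cpeb4 shRNA. By the mean length of the coding transcripts these multiples were 2.35 and 0.867. The share of Nfkb1 depends on the length used, since its merged exons span 12061 bases and its longest transcript 4149. By the longest transcript of each gene its share was 22.4% and 32.7%, which placed it level with Rela in the control library. With each length the share of Nfkb1 was larger and that of Rela smaller in the Cpeb4 shRNA library.

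**Figure D3:**
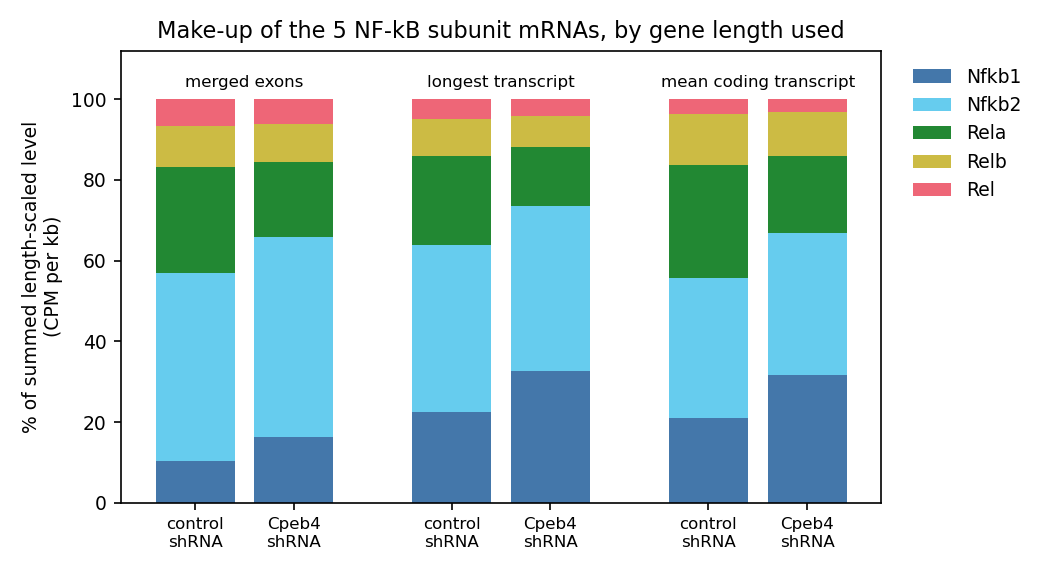
Share (%) of each subunit gene in the summed length-scaled level (CPM per kb) of the 5 subunits, for the control and the Cpeb4 shRNA library, with gene length taken in 3 ways. With each length the Nfkb1 part is larger in the Cpeb4 shRNA library (16.3% against 10.3% by merged exons) and the Rela part smaller (18.8% against 26.3%).

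CPEB proteins bind short uridine-rich elements in 3′ untranslated regions, so the elements TTTTAT and TTTTAAT were counted on the transcript strand in the 3′ untranslated region of the transcript with the longest coding sequence. At least 1 was present in 6 of the 10 members, and in 59.2% of the 10353 genes past the filter with such a region. Ikbkg had 8 in 5419 bases, Rel 7 in 5418, Nfkb1 4 in 700 and Nfkbia 2 in 512. Tnfaip3 and Ikbkb had 1 each, and Nfkb2, Rela, Relb and Map3k14 had 0. The genes with elements thus included the highest and the lowest ratio of the 10. Binding was not measured.

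The rest of the pathway was described by 7 lists, with counts under TMM scaling to be read against 14.6% of all genes higher and 11.8% lower. The other IκB proteins (5 of 5 past the filter) were all within 2-fold, with a median of 0.49, which was 0.14 over those averaging at least 10 CPM. Nfkbiz, which encodes a nuclear IκB, was highest at 0.92 (175 and 586 counts), and Nfkbie lowest at -0.21. Bcl3, a nuclear IκB that acts with the Nfkb1 and Nfkb2 products, stood at 0.60, and Nfkbib at -0.21. Nfkbie and Nfkbib thus shared the direction of Nfkbia at a smaller size, while Nfkbid (0.49), Bcl3 and Nfkbiz lay above 0. None of these relatives, which lay between -0.21 and 0.92, was as low as Nfkbia.

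Among 14 other kinases and adaptors the median was 0.02, and 1 was lower and 0 higher by the 2-fold rule. The lower one was Ikbke, which encodes the IKK-related kinase IKKε, with 553 and 161 counts (7.55 and 1.24 CPM, log2 ratio -2.60). Map3k8 was highest at 0.86 (293 and 939 counts). Chuk, which encodes IKKα, the kinase that NIK activates, stood at 0.28, and Map3k7, which encodes TAK1, at 0.31. The IκB ubiquitin ligase genes (5 past the filter) were all within 2-fold, from -0.68 for Btrc, which encodes the subunit that recognises IκBα, to 0.34 for Cul1.

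The 9 receptor genes had a median of -0.55, and 3 were higher and 1 lower. Tnfrsf1b, a TNF receptor gene, was lower at -2.63 (1756 and 500 counts). Tlr9 was higher at 5.29 from 4 and 276 counts, Cd40 at 2.89 from 19 and 249 counts and the interleukin receptor subunit gene Il1rap at 1.25 from 449 and 1889 counts. Tlr9 (0.055 and 2.13 CPM) and Cd40 (0.26 and 1.92 CPM) passed the filter only through the Cpeb4 shRNA library, so they had to differ, and the count of higher receptors says nothing beyond that for them. Tnfrsf11a, which encodes RANK, had 339 and 196 CPM (-0.79), within 2-fold.

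The 12 adaptor genes had a median of -0.15, with 2 past the line on either side. Traf6, the adaptor that RANK uses to reach the IKK complex, was lower, with 184 and 72.4 CPM (-1.35). Sqstm1, which encodes the scaffold that binds TRAF6, was also lower (-1.17). Traf1 (1.87) and Traf2 (1.03) were higher. Traf3, whose product keeps NIK low, stood at -0.05, and its partner genes Birc2 and Birc3 at 0.07 and 0.47. The 15 ubiquitin editors and chain writers had a median of -0.03, and 2 were higher and 1 lower. Tnip3, which encodes a partner of the Tnfaip3 product, was highest at 4.93 from 26 and 1400 counts, past the filter only through the Cpeb4 shRNA library, and Rbck1, a linear ubiquitin chain subunit gene, was at 1.18. Rnf11 was lowest at -1.22. Cyld, which encodes another brake of the pathway, was at -0.88 and within 2-fold. The list had no common direction, with 7 of the 15 genes above 0 and 8 below.

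NF-kB target genes went both ways. The table held 28 of the 38 listed symbols, and 22 were past the filter. Only genes with a count in both libraries were in it, so a target seen in 1 library alone is left out here. By the 2-fold rule 5 of the 22 were higher and 6 lower, and the median was 0.14. Among the higher ones were the surface and signalling genes Icam1 (1.16, from 75.7 and 169 CPM), Tnf (1.92, 214 and 1434 counts), Traf1 (1.87) and Cd40 (2.89). Tnip3 was the other one. Cd40 and Tnip3 (0.36 and 10.8 CPM) passed the filter only through the Cpeb4 shRNA library, so they had to differ. Bcl2a1a (2.39 and 0.912 CPM) passed only through the control library, and its call leans on that library. Ptgs2 (0.997 and 1.12 CPM) also passed through 1 library only, that of the Cpeb4 shRNA, and was within 2-fold. The lower ones were Marcksl1 (-2.01, from 177 and 43.9 CPM), Gadd45b (-1.28), and the survival genes Bcl2l1 (-1.24), Bcl2a1a (-1.39), Bcl2a1b (-2.23) and Bcl2a1d (-1.57). The Bcl2a1 genes are near-identical copies, and the division of reads among them is uncertain. Junb was at 0.999 and just inside the 2-fold line, and Nfatc1, the osteoclast master regulator, at -0.05. The list's median was -0.05 over genes averaging at least 10 CPM. It ranged from -0.58 with Gapdh scaling to 0.59 with Actb scaling, with 0.38 for total-count scaling. Traf1, Birc3, Cd40 and Tnip3 stand on 2 of these lists each.

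**Figure D4:**
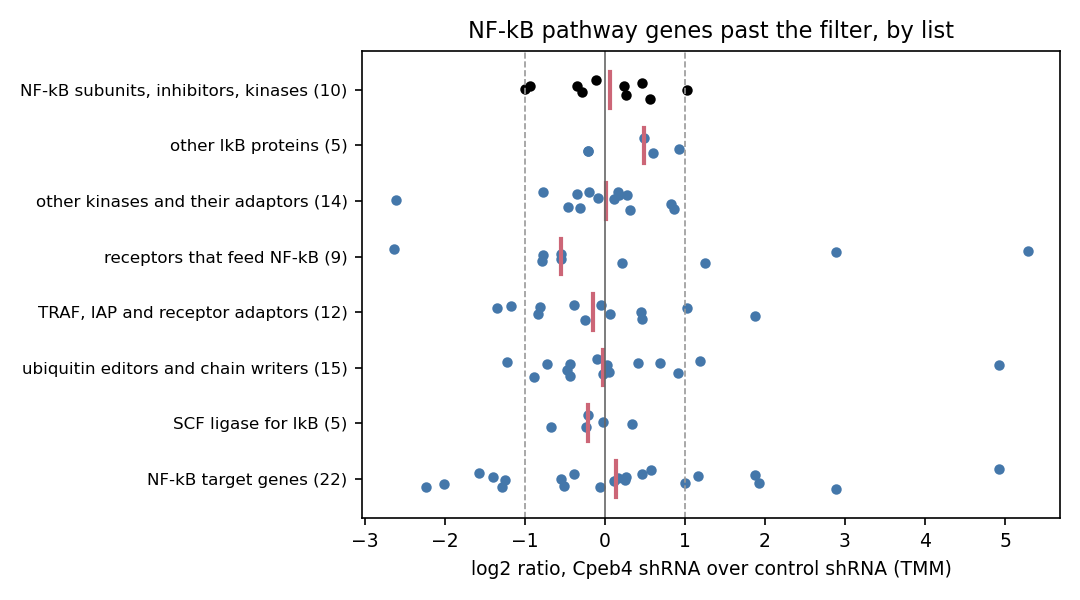
Log2 ratio of Cpeb4 shRNA over control shRNA (x axis, TMM scaling) for genes past the filter, 1 point per gene, in the NF-kB gene set and 7 pathway lists, with the number of genes in brackets and the list's median as a bar. Dashed lines mark 2-fold. The 10 NF-kB genes lie between -0.99 and 1.03, and receptors, adaptors, ubiquitin editors and targets reach beyond 2-fold on both sides.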

How the data were processed

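The deposited table gave whole-number read counts per gene and 1 column per library, matched to the labels by library name. Reads had been aligned with HISAT2 to mm10, per the submitters' processing notes; the sources used here do not give the counting tool, strand handling or annotation. Only genes with a count in both libraries were listed, and the values may be rounded estimates, which would make intervals approximate. Counts were scaled with TMM in edgeR 4.0.16 (R 4.3.3), and genes averaging at least 1 CPM were kept. Log2 ratios carry Clopper-Pearson intervals (scipy 1.17.1), and pair ratios conditional exact intervals. PCR copies are not independent molecules. Gene models came from GENCODE M21 (GRCm38, the assembly of mm10), promoters from RefSeq. Calculations were tested on simulated counts. These carried counting noise only, with few changed genes balanced in direction. They did not test the scaling under differences as wide as those between these libraries.

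Members and lists were chosen with earlier results of these data known. All members are named, and of each list the highest, the lowest, those past 2-fold and some chosen for their role after values were seen. Alternatives were total-count, upper-quartile, DESeq2 1.42.0 and 20-reference-gene scaling, filters, thresholds, a pseudocount of 2 CPM and gene lengths.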

Additional observations from a re-analysis of the deposited data

How the results depend on the processing

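No paired analysis was possible because there was only 1 library in a group and nothing was tested. Scaling to Actb or Gapdh alone and subtraction of a fitted trend with GC content and length were chosen after seeing the data. Gapdh had only 51.0 and 84.2 CPM in the control and Cpeb4 shRNA libraries, beside 2201 and 1614 CPM for Actb. It shares exon bases with Iffo1 on the opposite strand. The reason for its low level was not tested, and values under Gapdh scaling are to be read with that limit. The number of members at least 2-fold higher, 1 with TMM, was 0 with upper-quartile scaling (Nfkb1 at 0.995), 0 at a 4-fold threshold, 2 with Actb scaling and 0 with Gapdh scaling, beside 13.8%, 4.82%, 27.6% and 6.27% of all genes. The number at least 2-fold lower, 0 with TMM, was 1 with DESeq2 size factors (Nfkbia at -1.01), 1 with upper-quartile scaling (Nfkbia at -1.03), 2 at a 1.5-fold threshold and 4 with Gapdh scaling, beside 12.1%, 12.5%, 22.1% and 34.1% of all genes. The members' median, 0.06, was 0.30 with total-count, 0.21 with reference-gene, 0.51 with Actb and -0.66 with Gapdh scaling. These scalings add 1 constant to every ratio: 0.23 for total-count, 0.15 for reference-gene, 0.45 for Actb and -0.72 for Gapdh scaling, and the all-gene median moves with it. The share of higher among called genes was 55.4% with TMM, 70.5% with total-count, 65.1% with reference-gene, 81.1% with Actb and 15.5% with Gapdh scaling. The 20 reference genes ranged from -1.96 for Tfrc to 1.93 for Tubb5, with Rplp0 also past 2-fold at 1.01. By the longest transcript Nfkb1 made up 22.4% and 32.7% of the subunit sum in the control and Cpeb4 shRNA libraries, and Nfkbia was 3.29 and 1.18 times that sum. By the mean coding transcript the shares were 20.99% and 31.6%, and the multiples 2.35 and 0.867. The direction of Nfkb1, Nfkbia and Tnfaip3 was the same under all 10 settings tried for each. The changed filters among these settings cannot alter a gene's own ratio, so they add nothing to this.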
